A study of Mus musculus with 6 samples.

Results

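The TRPC genes encode the canonical transient receptor potential channels, a family of cation channels in the cell membrane. Of the 6 family members considered here (Trpc1, Trpc2, Trpc4, Trpc5, Trpc6 and Trpc7), 5 had a row of their own on the array, out of 19938 distinct gene symbols with such a row. Each of the 5 was measured by a single row, with the identifiers 10595753 (Trpc1), 10492006 (Trpc4), 10607169 (Trpc5), 10583163 (Trpc6) and 10409602 (Trpc7). The sole row that carries Trpc2 lists 3 symbols and was not assigned to any of them, so Trpc2 was not analysed here. The family was chosen on measured values, because the fall of Trpc7 between the 2 groups of these arrays was already known. The differences of its members in that comparison are therefore given with their errors as a description and without p-values.

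N2A (neuro 2A) is a mouse neuroblastoma cell line that is widely used as a model of neuronal cells. The cells were grown in medium with 10% fetal bovine serum and transiently transfected with 1.5 ug of an expression construct, either a non-targeting vector (control, 3 arrays) or a vector for a short hairpin RNA (shRNA) against the transcription factor gene Pou3f3 (knockdown, 3 arrays). Total RNA was taken 2.5 days later and measured on Affymetrix whole-transcript arrays of the mouse (Mouse Gene 1.0 ST), on which each transcript is covered by probes along its length. All 6 arrays thus come from transfections of 1 cell line, labelled as biological replicates, and no sorting of transfected cells is stated. The study's methods do not say which of its hairpins against Pou3f3 was used for these arrays. In bulk RNA, fewer cells that express a gene and less RNA per cell cannot be told apart.

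TRPC channels open downstream of receptors that couple to the G protein Gq and activate phospholipase C, which splits a membrane lipid into diacylglycerol and inositol trisphosphate. TRPC6 and TRPC7 are opened directly by diacylglycerol, whereas TRPC4 and TRPC5 form a second branch that also responds to phospholipase C, and TRPC1 mostly joins other TRPC subunits in mixed channels. The open channels pass sodium and calcium, which depolarises neurons and feeds calcium-dependent signalling. TRPC2 acts in the mouse vomeronasal organ.

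POU3F3 belongs to the class III POU factors, which recognise the octamer ATGCAAAT and related sequences. The windows of 300 bases around the annotated starts of the 6 genes (from RefSeq, GRCm38.p6, all 6 matched) were searched on both strands. The search covered this octamer, its first 7 letters ATGCAAA, and CAT and TAAT joined directly or across a gap of 2 or 3 bases. None of the 6 windows held the full octamer or the paired CAT and TAAT letters. The window of Trpc7 held 1 match to ATGCAAA, and those of the other 5 genes held none. The shortened octamer was added to the search after the sequences had been seen. The stretch around the match is shown because Trpc7 is the member with the largest difference of the 5 measured. It lies on the minus strand at chr13:56895969-56896039, wholly upstream of the Trpc7 gene as RefSeq bounds it, and is written in the direction of the gene. Of the 300 bases of the Trpc7 window, only these 71 lie before the gene by those bounds. The capitals mark the match, which reads as the reverse complement of ATGCAAA and ends 30 bases before the gene's edge.

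Trpc7 upstream: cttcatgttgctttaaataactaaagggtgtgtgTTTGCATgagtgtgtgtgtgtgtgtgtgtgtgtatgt

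Such letters are common. ATGCAAA was found in 4.63% of 32851 windows of the same length, and the full octamer, whose matches are also matches to ATGCAAA, in 1.74%. CAT and TAAT occurred in 1.96% of windows when joined directly, in 2.47% with a gap of 2 and in 2.87% with a gap of 3. The match is a description of the sequence and says nothing of binding.

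Before the family is described, the arrays were checked against their labels. Pou3f3 itself measured 8.37, 8.30 and 8.47 on the control arrays and 8.20, 8.09 and 8.35 on the knockdown arrays (log2 array values, replicates 1 to 3). It was lower in all 3 pairs of the same number, but the groups overlapped. The difference of -0.16 (95% confidence interval -0.35 to 0.02) did not pass the test (limma adjusted p = 0.303, or 0.0880 with the replicate block described in the processing notes). By qRT-PCR the study itself reported less Pou3f3 transcript after transfection of a Pou3f3 shRNA vector, at a later time than the 2.5 days of these arrays. The fall it reported was larger than any value in the array interval, and the reason was not tested. The Pou3f3 relatives Pou3f1, Pou3f2 and Pou3f4 differed by -0.06, -0.24 and -0.24 (limma adjusted p = 0.590, 0.120 and 0.163). With the replicate block the adjusted p of Pou3f2 and Pou3f4 was 0.0264 and 0.0440, below the fold cut-off in both. Markers of the neuroblastoma and sympathoadrenal lineage stood at 9.91 to 13.79 in control cells (10 of 12 measured). Of these 10, 7 lay below 0, and knockdown arrays lay wholly below control arrays for 4. Over all rows with 1 symbol, 57.5% lay below 0 and 15.1% had knockdown arrays wholly below control arrays. Dbh, which makes noradrenaline, fell by 1.17 and was called. Th, which catalyses the first step of catecholamine synthesis, differed by -0.38 and was called only with the replicate block, while Chga and Gata3 differed by -0.35 and -0.33 and were not called. Of 29 measured markers of other cell types, 26 lay below 0 (median -0.10), with knockdown arrays wholly below control arrays for 11. Of the 29, 1 was called, the muscle gene Des, which rose by 0.39. Their mean log2 level ran from 7.56 to 7.61 on the control arrays and from 7.45 to 7.55 on the knockdown arrays, and the part of either set of markers in the differences below was not tested.

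Trpc7, whose product is a diacylglycerol-gated channel, was the member that fell in knockdown cells. It measured 9.73, 9.83 and 9.69 on the 3 control arrays and 8.83, 8.94 and 8.81 on the 3 knockdown arrays. All knockdown arrays lay below all control arrays, and the gap of 0.75 between the groups exceeded the range within either group (0.14 in control and 0.13 in knockdown). The mean went from 9.75 ± 0.07 to 8.86 ± 0.07 (SD, n = 3), a log2 difference of -0.89 ± 0.07 (SE, 95% confidence interval -1.05 to -0.73). On the linear scale this is 46.0% less signal (interval 39.7% to 51.6%), or a 1.85-fold lower value (1.66 to 2.06). Between arrays of the same replicate number the differences were -0.90, -0.88 and -0.88, so each pair moved by nearly the same amount.

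Among the 21789 rows with 1 gene symbol, the difference of Trpc7 was the 10th largest fall. Calls required both a 1.3-fold difference (0.38 on the log2 scale) and a limma p-value below 0.1 after adjustment over all rows. Of the 5 TRPC genes 1 was called, namely Trpc7, lower. Over all rows 1.99% were called (433 rows), and 0.684% were called lower (149 rows). With the replicate number as a block Trpc7 remained the only TRPC gene called, beside 0.757% of all rows called lower. Because Trpc7 was the reason for choosing the family, the count of 1 in 5 is not read against these shares.

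Trpc6, the other diacylglycerol-gated channel of the family measured here, did not follow Trpc7. Its values were 8.27, 8.10 and 8.05 in control cells and 8.07, 8.15 and 8.04 in knockdown cells. The groups overlapped almost entirely, since a single control array stood above all 3 knockdown arrays. The means were 8.14 ± 0.12 and 8.09 ± 0.05 (SD, n = 3), with a difference of -0.05 ± 0.08 (SE, 95% confidence interval -0.22 to 0.12). By pair the differences were -0.20, 0.05 and -0.01, without a common direction. The sign of the mean difference rested on control replicate 1, without which it was 0.015, and it was 0.0013 after cyclic loess scaling.

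Trpc4 and Trpc5, the branch of the family not gated directly by diacylglycerol, were not called. Trpc4 measured 7.23, 7.16 and 7.12 in control cells and 7.07, 7.00 and 7.25 in knockdown cells, so that the highest and the lowest value of all 6 arrays were both knockdown arrays. The difference was -0.06 ± 0.08 (SE, 95% confidence interval -0.24 to 0.12), from 7.17 ± 0.05 to 7.11 ± 0.13 (SD, n = 3), and it was 0.018 after cyclic loess scaling. Its 3 pairs differed by -0.15, -0.16 and 0.13. Trpc5 gave 6.33, 6.22 and 6.29 against 6.12, 6.17 and 6.29, and the groups again overlapped. Its mean went from 6.28 ± 0.06 to 6.19 ± 0.09, a difference of -0.09 ± 0.07 (interval -0.25 to 0.07). The transcript Trpc5os, which is named for the strand opposite Trpc5 and was picked after its values were seen, differed by 0.05 (5.74, 5.83 and 5.94 in control, 5.94, 5.89 and 5.82 in knockdown).

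Trpc1, the subunit that joins other TRPC proteins, showed a small difference with groups that did not overlap. It measured 7.00, 7.04 and 6.96 in control cells and 6.77, 6.85 and 6.85 in knockdown cells, a gap of 0.10. The means were 7.00 ± 0.04 and 6.82 ± 0.05 (SD, n = 3), and the difference of -0.18 ± 0.06 (SE, 95% confidence interval -0.32 to -0.03) corresponds to 11.4% less signal (interval 2.20% to 19.8%). The pairs differed by -0.23, -0.19 and -0.10. Trpc1 was not called. With the replicate block Trpc1 met the adjusted p of the call rule but not its fold. Knockdown arrays lay wholly below control arrays for 2 of the 5 TRPC genes, Trpc1 and Trpc7, and for 15.1% of all rows with 1 symbol (3280 rows). The family was chosen for the fall of Trpc7, so the count of 2 in 5 is not read against that share.

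**Figure D1:**
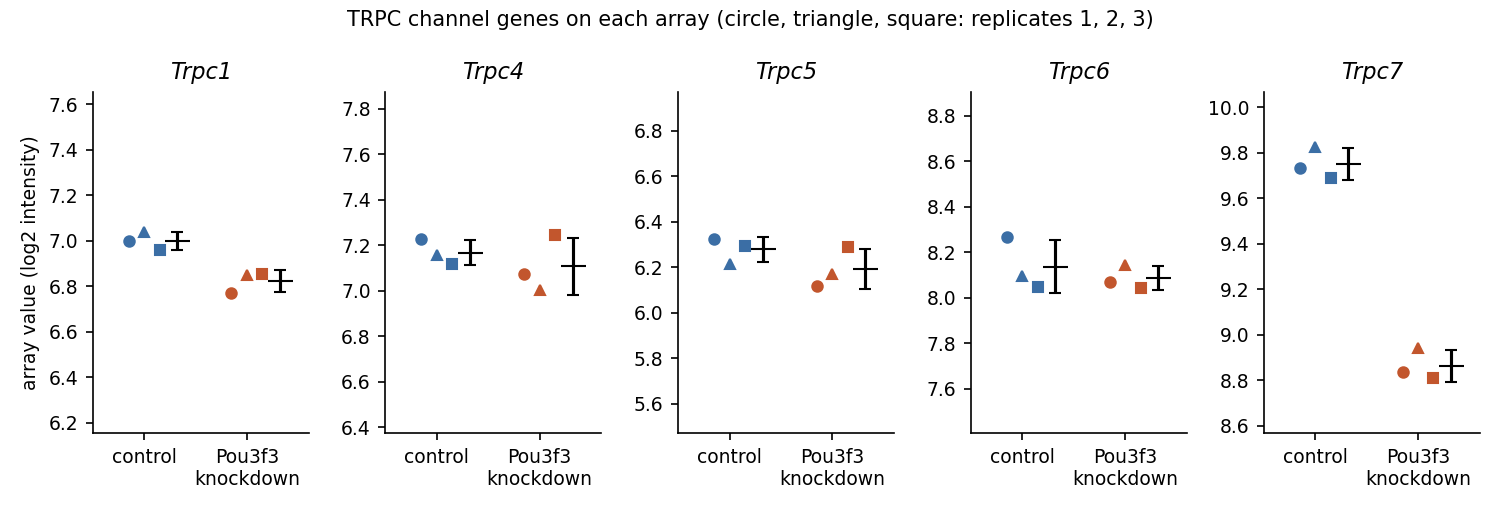
Log2 array values of the 5 measured TRPC genes in control (blue) and Pou3f3 knockdown (orange) cells, with circles, triangles and squares for replicates 1, 2 and 3 and black bars for the mean ± SD (n = 3). Each vertical axis spans the same number of log2 units around its own centre, since levels of different probes are not comparable; Trpc7 falls from about 9.75 to 8.86, and the groups of Trpc4, Trpc5 and Trpc6 overlap.

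The intervals bound the difference in array signal of the other 4 genes. Their lower ends, -0.32 for Trpc1, -0.24 for Trpc4, -0.25 for Trpc5 and -0.22 for Trpc6, all lie above a 1.3-fold fall (-0.38). Smaller differences remain within the error of 3 arrays per group. Signal over background was not analysed here. In control cells Trpc1 and Trpc4 stood at levels like those of the astrocyte markers Gfap, Aqp4 and Aldh1l1 (7.25, 6.75 and 6.86). Trpc5, at 6.28, stood below these markers. The 29 measured markers of other cell types ran from 4.96 to 9.07 in control cells. That range also holds Trpc6 in control cells (8.14) and the knockdown mean of Trpc7 (8.86). The intervals therefore do not bound the change in transcript. The difference of Trpc7 relative to another member can also be read within each array, where a constant shift of an array cancels but a shift that depends on level does not. From control to knockdown the log2 ratio of Trpc7 to Trpc1 changed by -0.71, that to Trpc4 by -0.83, that to Trpc5 by -0.80 and that to Trpc6 by -0.84. For each of the 4 ratios all knockdown arrays lay below all control arrays. These ratios largely restate the fall of Trpc7, for which the family was chosen, and were not tested.

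The position of each gene among rows of a similar level was also described. Rows with 1 symbol were split by their mean into 10 classes. The median difference was lowest in the class at 7.23 to 7.82, at -0.09, and highest in the class at 9.51 to 10.26, at 0.07, and 57.5% of all rows lay below 0 (median -0.03). Trpc7 lay in a class of 2178 rows (8.60 to 9.50) with a median of 0.04, where 0.0459% of rows, a single row, had a lower difference. Since the family was chosen for this fall on the same arrays, that extreme place follows from the choice. Trpc1 shared its class with Trpc4, at a class median of -0.08, and 12.8% of the rows there lay below Trpc1 against 61.2% below Trpc4. For Trpc5, in a class with a median of -0.06, 35.7% of rows lay below it, and for Trpc6, in a class with a median of -0.08, 58.8%. Trpc4 and Trpc6 thus lay slightly above, and Trpc5 slightly below, the middle of rows at their level.

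**Figure D2:**
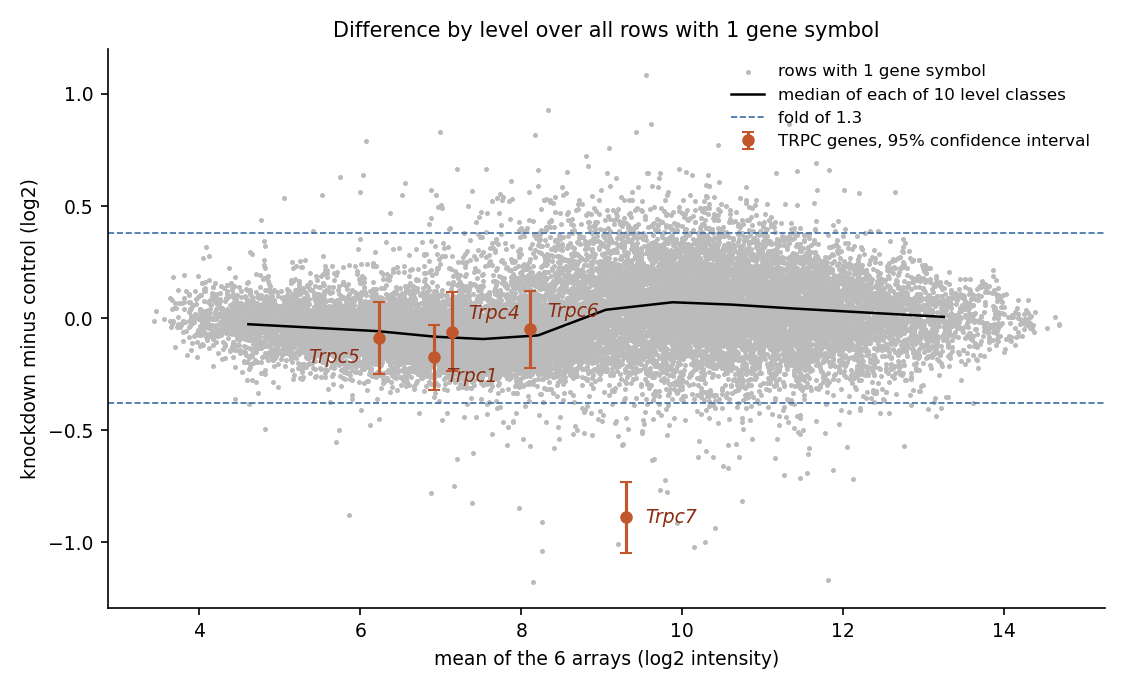
Log2 difference, knockdown minus control (vertical axis), against the mean log2 value of the 6 arrays (horizontal axis) for all 21789 rows with 1 gene symbol (grey), with the median of each of 10 level classes (black line), the 1.3-fold cut-off (dashed) and the 5 TRPC genes with 95% confidence intervals (orange). Trpc7, at -0.89, stands outside the 1.3-fold lines, and the intervals of the other 4 genes lie within them.

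The difference of Trpc7 held its size under every alternative tried. Over 15 alternative settings it ran from -0.93 to -0.85, and Trpc7 was called in each. The weakest of these calls lay near the adjusted p cut-off of 0.1. These settings refit the arrays on which Trpc7 was chosen, so the repeated call is no separate support. The other 4 genes were not called in any of the 12 alternatives that retained them, with differences of -0.20 to -0.10 for Trpc1, -0.13 to 0.02 for Trpc4, -0.14 to -0.02 for Trpc5 and -0.10 to 0.02 for Trpc6. The remaining 3 settings filter rows by level or variance, and Trpc7 was the only TRPC gene that passed those filters.

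**Figure D3:**
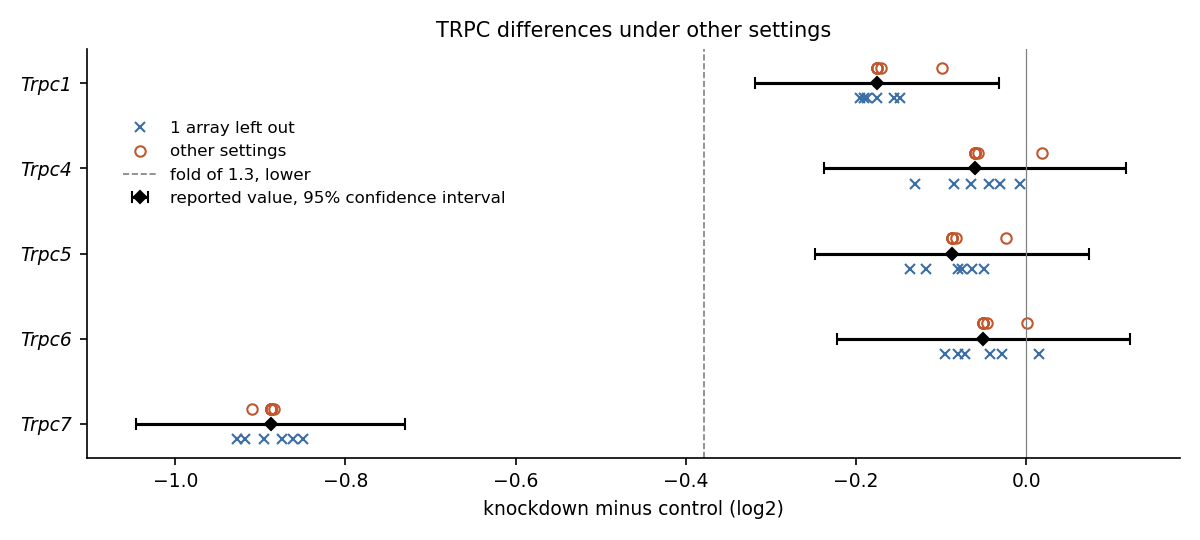
Log2 difference, knockdown minus control (horizontal axis), of the 5 TRPC genes as reported (black diamonds with 95% confidence intervals), with 1 array left out (blue crosses) and under the other settings (orange circles), with a dashed line at a 1.3-fold fall. All values of Trpc7 lie between -0.93 and -0.85, and those of the other 4 genes between -0.20 and 0.02.

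To see whether the genes that surround the TRPC channels changed with them, 9 lists were described, from receptor to effector. They hold 140 symbols, of which 128 were measured. None was called, with or without the replicate block (limma, adjusted over all rows). Over all 21789 rows 433 were called, or 544 with the block. At an unadjusted p under 0.05 there were 17 of the 128, against 4327 of all rows, and 90 of the 128 lay below 0, against 57.5% of all rows. Their median difference was -0.06, beside -0.03 for all rows, and 117 of them had a 95% confidence interval within 1.3-fold in both directions, as did 16937 of all rows. The lists were compiled with earlier results of these arrays known.

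Upstream of the channels, 23 genes of Gq alpha subunits and Gq-coupled receptors had a median of -0.07, with 4 above and 19 below 0. The largest difference was that of P2ry6, a receptor for extracellular nucleotides, at 0.22 ± 0.10 (SE, limma adjusted p = 0.249). Gnaq, which encodes the Gq alpha subunit itself, differed by -0.17 (limma adjusted p = 0.197). Of the 12 phospholipase C isoforms 10 lay below 0 (median -0.07), with Plcb2, a Gq-responsive isoform, at -0.21 ± 0.06 (limma adjusted p = 0.131). The kinases that consume diacylglycerol and the lipases that cleave it had a median of 0.06 over 10 genes, 7 of them above 0, and Dgki, a diacylglycerol kinase, stood furthest out at 0.17 (limma adjusted p = 0.214).

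Diacylglycerol also activates protein kinase C isoforms, which inhibit several TRPC channels. Of 6 measured, 5 lay below 0 and the median was -0.17, the lowest of the 9 lists. Groups did not overlap for 4 of them, Prkca, Prkcb, Prkce and Prkcq, all lower in knockdown cells, beside the 15.1% of all rows given above. The largest difference was that of Prkcb, which measured 8.10, 8.11 and 8.12 in control cells and 7.95, 7.80 and 7.92 in knockdown cells (-0.22 ± 0.07, SE, limma adjusted p = 0.133). Prkce differed by -0.21 (limma adjusted p = 0.136) and Prkca and Prkcq by -0.17 each (limma adjusted p = 0.197 for both). No isoform was called, and all 6 intervals lay within 1.3-fold.

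Among the inositol trisphosphate receptors and the STIM and ORAI proteins, which release calcium from its stores and refill them, 5 of 7 genes lay below 0 (median -0.06). Orai3, a store-operated channel subunit, differed by -0.26 ± 0.07 (SE, limma adjusted p = 0.111). The 20 measured TRP channels outside the TRPC family, which comprise the TRPM, TRPV, TRPA, mucolipin and polycystin groups, had a median of -0.08, and 16 lay below 0. The furthest of them was Pkd2l1, a polycystin-like channel, at -0.27 ± 0.10 (limma adjusted p = 0.186), and its groups overlapped.

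Proteins that bind or traffic TRPC channels showed no common direction, with 9 of 18 genes above 0 and a median of 0.00. Calm3, which encodes calmodulin, differed by 0.33 ± 0.08 (SE, limma adjusted p = 0.0711), below the fold cut-off. The scaffold gene Slc9a3r1 differed by 0.30 (limma adjusted p = 0.165) and was called only when knockdown replicate 1 was left out (0.40, limma adjusted p = 0.0773). Trpc4ap, named for its binding to TRPC4, stood at 12.37 ± 0.14 and 12.39 ± 0.07 (SD, n = 3). Its difference of 0.01 turned negative in 3 of the alternative settings.

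Downstream, 9 of 10 calcium pumps and sodium/calcium exchangers lay below 0 (median -0.11). Atp2b3, a pump that exports calcium across the cell membrane, differed by -0.31 ± 0.07 (SE, limma adjusted p = 0.0564), below the fold cut-off, with groups that did not overlap. The calcium-dependent effectors, namely calcineurin subunits, NFAT factors and CaM kinases, had a median of -0.04 over 22 genes. Nfat5 was furthest from 0 at -0.23 ± 0.11 (limma adjusted p = 0.288).

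**Figure D4:**
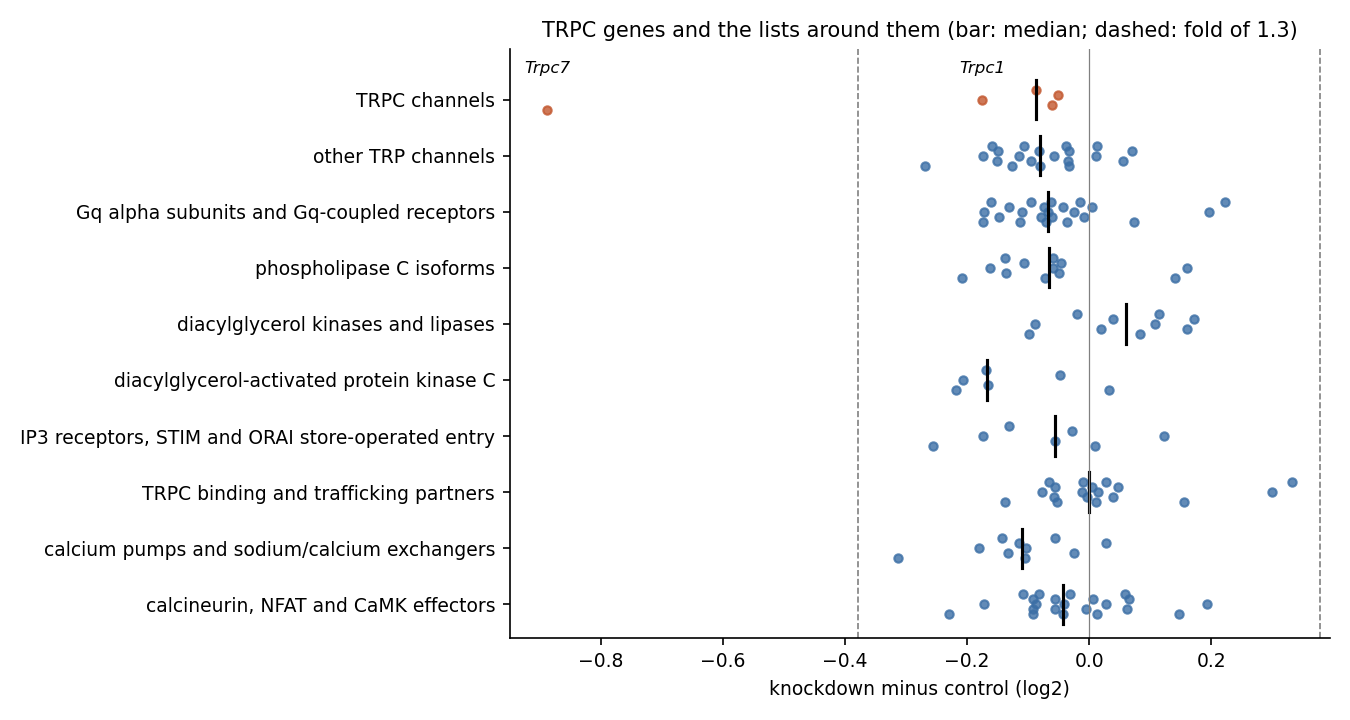
Log2 difference, knockdown minus control (horizontal axis), of each measured gene of the TRPC family (orange) and of 9 lists of related genes (blue), with black bars for list medians and dashed lines at 1.3-fold in each direction. Trpc7, at -0.89, is the only gene outside the dashed lines, and the 128 list genes run from -0.31 to 0.33.

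The genes whose values followed those of Trpc7 most closely over the 6 arrays were named by Pearson's r, with 1 row for each of 19933 symbols. Because Trpc7 forms 2 separate groups of arrays, r mainly reflects how cleanly a gene separates them, and it is given without a p-value. The highest were Syn3 (0.995), Sdc3 (0.995), Ankrd34c (0.994), Garnl3 (0.994) and Ksr2 (0.993). The lowest were Lrrc49, Eci2 and Snhg5 (each -0.996), Trim71 (-0.992) and Rpl28 (-0.991). Their sizes of difference varied widely. The proteoglycan gene Sdc3 fell by 0.78 and Garnl3 by 0.52, whereas Syn3, a synapsin gene, differed by only -0.18, Ankrd34c by -0.17 and the kinase suppressor gene Ksr2 by -0.33, and these 3 were not called. On the opposite side the non-coding host gene Snhg5 rose by 0.87, Eci2 by 0.43 and Lrrc49 by 0.38, while Trim71 and Rpl28 differed by 0.20 and 0.11 and were not called. Within groups, as deviations from the group means, r ran from 0.679 for Sdc3 to 0.832 for Syn3 among the first 5, and from -0.899 for Trim71 to -0.433 for Rpl28 among the last 5. All 10 were picked for an extreme r on the same arrays, which favours extreme values within groups too. In all, 235 symbols had an r of at least 0.95 with Trpc7, and 60 of these were called lower, beside 0.684% of all rows. A higher share called lower follows from the choice by r on the same arrays.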

How the data were processed

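The authors processed the arrays with the oligo, genefilter and limma packages: the signals were background corrected by RMA, quantile normalised and summarised by gene. The deposited log2 values ran from 3.16 to 14.89 (array medians 7.90 to 8.01). Quantile normalisation hides a change shared by most transcripts. Versions and genome build are not given in the sources used here.

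GEO's platform annotation supplied gene symbols. It gives 1 symbol for 21789 of the 35556 rows, several for 1621 and no entry for 12146. The 21789 rows were fitted with lmFit and eBayes (limma 3.58.1, R 4.3.3, two-sided, Benjamini-Hochberg adjustment), group only. The study's variance filter was left out because it removes 4 of the 5 measured TRPC genes, and it was tried as an alternative. A further reason was an earlier analysis of these data, in which rows without a gene name dominated the filtered test of all rows. For each symbol the row with the highest mean was used. The members, lists and tests were chosen with earlier results of these data known. Genes named are the TRPC genes, the furthest member of each list, the class III POU genes and genes that a small count turns on. The 5 genes with the highest and the 5 with the lowest r with Trpc7 are named too.

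No arrays held identical values (correlations 0.994 to 0.999). Deviations of same-numbered arrays from their group means correlated at 0.638, 0.307 and 0.289. The numbers were therefore taken to pair the arrays, and the replicate number was used as a block in an alternative fit. Control 2 with knockdown 3 gave 0.254 and control 3 with knockdown 2 gave 0.216. Unlike numbers that involve replicate 1 gave -0.478 to -0.369. These correlations thus set replicate 1 apart but hardly tell replicates 2 and 3 from each other. No shared day or culture is stated. The p-values measure the spread between transfections of 1 line. The script was tested on simulated data.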

Additional observations from a re-analysis of the deposited data

How the results depend on the processing

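The number of TRPC genes called, 1, was the same in all 15 alternatives, and Trpc7 was that gene each time. Because the family was chosen for that fall on these arrays, the repeated call is a description only. The number of rows called over the whole table was not stable. It was 433 as reported, 28 when all rows of the table were tested, 12 when the variance filter was applied to all rows, and 147 to 611 when 1 array was left out, the lowest without knockdown replicate 2 and the highest without control replicate 1 (161 without control replicate 2 and 219 without control replicate 3). Testing more unnamed rows is part of how the first 2 of these settings are built. After cyclic loess 232 of 425 calls were higher, against 284 of 433. In the fit with the replicate block 544 rows were called, with 1 TRPC gene and 0 pathway genes. The block changed no call among the TRPC genes and the pathway lists. The pathway lists had 0 to 1 calls when 1 array was left out, the call being Slc9a3r1 without knockdown replicate 1.

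The signs of the smallest differences depended on the settings, and the cause was not tested. Trpc4 was 0.018 after cyclic loess. Trpc6 was 0.0013 after cyclic loess and ran from -0.095 without control replicate 3 to 0.015 without control replicate 1. Trpc4ap was -0.0023 after cyclic loess and ran from -0.064 without control replicate 1 to 0.071 without control replicate 3, and it was -0.016 without knockdown replicate 3. Of 339 values of 24 other genes named, 325 kept their direction and side of the threshold, 11 were no longer called and 3 turned sign. With 3 arrays per group, differences of about 0.1 on the log2 scale lie within the error, and signal over background was not analysed here, so low levels carry no statement of presence.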
